A study of Mus musculus with 9 samples.

Results

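The 10 genes described here encode enzymes of glycolysis and were chosen by name, as the rows of the deposited expression table for Hk1, Hk2, Gpi1, Pfkl, Aldoa, Tpi1, Pgk1, Pgam1, Pkm and Ldha, out of 23420 listed genes. They were followed through 9 RNA-seq libraries of RAW264, a macrophage-like mouse cell line from which RANKL, a cytokine of bone, can induce osteoclasts, the cells that resorb bone. Both mutant clones were made with CRISPR/Cas9 against Zscan10, a zinc finger gene, by electroporation of a plasmid that carries Cas9, the guide RNA and the ZsGreen1 marker, followed by sorting of single cells. The groups were KO #1, labelled as mutated in exon 2, KO #2, labelled as mutated in exon 5, and Control, RAW264 cells labelled as having no mutation. Each group had 3 libraries, none of the cultures received RANKL, and each mutant group is 1 clone, so an effect of the Zscan10 mutation and a peculiarity of the clone cannot be told apart. The labels give the raw reads of the clones the opposite numbers from the processed columns, so which exon belongs to which clone is uncertain, and the clones are named here only as KO #1 and KO #2. By its title the series asks how Zscan10 restrains osteoclast formation.

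Glycolysis converts glucose to pyruvate in the cytosol and yields ATP and NADH. Its early steps spend ATP to prime and split the sugar, its later steps return ATP, and lactate dehydrogenase then regenerates NAD+ by reducing pyruvate to lactate. Macrophages raise glycolysis when they are activated, and HIF-1, a transcription factor built around Hif1a, is a known activator of many of these enzyme genes under low oxygen.

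Promoter windows are shown for 6 of the 7 members that differed in KO #2 against Control, as described below. Windows with and without a motif match can thus be compared. The promoter of Pkm, the seventh, is not printed because its RefSeq window lies largely inside the deposited gene model. Each line holds the 250 bases before the start site in RefSeq (GRCm38.p6), read 5′ to 3′ on the strand of the gene. Capitals mark matches to the core of the hypoxia response element, ACGTG or GCGTG, on either strand. The windows are chr7:46845554-46845803 on the plus strand for Ldha, chrX:106186850-106187099 on the plus strand for Pgk1, chr19:41911621-41911870 on the plus strand for Pgam1, chr6:82774455-82774704 on the minus strand for Hk2, chr10:62379909-62380158 on the minus strand for Hk1, and chr7:126800448-126800697 on the minus strand for Aldoa.
Ldha: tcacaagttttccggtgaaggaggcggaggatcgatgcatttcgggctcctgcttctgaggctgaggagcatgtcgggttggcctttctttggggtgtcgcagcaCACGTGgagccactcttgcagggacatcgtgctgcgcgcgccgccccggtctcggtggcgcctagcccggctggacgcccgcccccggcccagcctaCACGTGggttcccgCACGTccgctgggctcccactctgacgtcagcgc
Pgk1: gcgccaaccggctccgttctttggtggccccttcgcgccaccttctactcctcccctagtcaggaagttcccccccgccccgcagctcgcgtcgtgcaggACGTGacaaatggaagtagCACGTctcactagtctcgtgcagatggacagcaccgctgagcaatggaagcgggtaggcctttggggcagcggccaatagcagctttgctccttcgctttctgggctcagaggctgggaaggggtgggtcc
Pgam1: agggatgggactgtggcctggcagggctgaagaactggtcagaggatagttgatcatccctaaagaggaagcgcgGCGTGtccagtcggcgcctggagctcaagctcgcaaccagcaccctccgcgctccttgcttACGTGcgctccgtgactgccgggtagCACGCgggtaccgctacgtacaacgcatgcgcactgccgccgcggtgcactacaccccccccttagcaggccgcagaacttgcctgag
Hk2: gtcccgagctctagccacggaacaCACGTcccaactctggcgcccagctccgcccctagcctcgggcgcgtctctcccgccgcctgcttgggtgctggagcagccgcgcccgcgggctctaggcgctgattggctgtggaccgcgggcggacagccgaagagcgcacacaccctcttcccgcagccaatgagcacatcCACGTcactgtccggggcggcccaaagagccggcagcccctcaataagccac
Hk1: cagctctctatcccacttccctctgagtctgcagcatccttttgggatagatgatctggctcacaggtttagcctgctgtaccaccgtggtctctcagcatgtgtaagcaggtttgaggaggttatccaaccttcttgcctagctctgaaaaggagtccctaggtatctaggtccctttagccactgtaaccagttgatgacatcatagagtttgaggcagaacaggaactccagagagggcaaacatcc
Aldoa: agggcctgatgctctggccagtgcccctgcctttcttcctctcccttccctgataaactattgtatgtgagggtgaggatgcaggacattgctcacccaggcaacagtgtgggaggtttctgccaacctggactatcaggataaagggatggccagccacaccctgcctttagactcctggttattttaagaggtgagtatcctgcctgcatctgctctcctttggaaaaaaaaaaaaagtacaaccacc
Ldha held 5 matches to the core, 4 of which lay inside 2 copies of the E-box CACGTG, where the palindrome is counted on both strands. Pgam1 held 3 matches, Pgk1 and Hk2 held 2 each, and Pfkl held 1. No match stood in the windows used for Hk1, Gpi1, Aldoa, Tpi1 and Pkm, so 5 of the 10 members had the core in the window used. Among 9334 windows of the tested genes 58.0% had it, so the members lie near the background. The E-box stood in 1 of 10 member windows, against 8.77% of those windows, and the GC box GGGCGG in 6 of 10, against 59.1%. The start used for Pkm lies 208 bases and that for Tpi1 138 bases from the 5′ end of the deposited gene model. Hk1, Pkm and Ldha have 2 windows each and Aldoa has 3, of which the nearest was used. The other windows of these genes do not enter the member counts, so a gene without a match here may hold the core at another start. These matches describe the letters of the windows and show no binding.

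Total depth was 1821703 to 2458539 reads per library. All 9 libraries had 0 reads for Zscan10, the targeted gene, which allows up to 1.22 to 1.65 CPM per library, so its level checks no label. The macrophage markers all had reads in every group, 12 of 12, with summed levels of 45521 to 46580 normalised reads in KO #1, 40459 to 41957 in KO #2 and 32573 to 33700 in Control. Of 8 osteoclast markers 7 had reads in KO #1, 6 in KO #2 and 6 in Control, and their summed levels were 182 to 190, 609 to 674 and 177 to 197 normalised reads in these groups. All 5 epithelial markers were at 0 in every library. Of 7 fibroblast markers at most 2 had reads in any group, with sums of at most 4.06 normalised reads, and the sums over T cell markers reached 16, over B cell markers 1.18 and over neutrophil markers 3.99. Lyz2, the macrophage lysozyme, made up most of the macrophage sum, and without it the other 11 markers summed to 15884 to 16147 normalised reads in KO #1, 13305 to 13640 in KO #2 and 15327 to 15587 in Control. Of the 12 macrophage markers limma called 6 higher and 2 lower in KO #1 against Control. It called 1 higher and 7 lower in KO #2 against Control. Over all tested genes it called 20.8% and 22.5% in these comparisons. Nfatc1, an osteoclast transcription factor, averaged 159 normalised reads in KO #1, 559 in KO #2 and 164 in Control, and the other 7 osteoclast markers summed to 21.6 to 33.9 in KO #1, 71.7 to 78.3 in KO #2 and 21.0 to 26.2 in Control. The part of these markers in the differences below was not tested.

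Per exon length, Pkm had the highest level of the members, 2373 RPKM (reads scaled to exon length and library size) as a mean of 9 libraries, the 10th highest of all genes. Pkm encodes the muscle-type pyruvate kinase, which forms pyruvate and ATP in the last step of the pathway. Ldha, the lactate dehydrogenase A subunit, followed at 1185 RPKM. Aldoa and Pgk1 came next at 971 and 967 RPKM. Tpi1 and Pgam1 stood at 543 and 519 RPKM, and Gpi1 at 335 RPKM. The genes of the committing early steps were far lower, with Hk1 at 53.5, Pfkl at 44.9 and Hk2 at 24.2 RPKM. Over the 9 libraries the ranges of neighbours in this order overlapped only for Aldoa with Pgk1 and for Tpi1 with Pgam1.

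**Figure D1:**
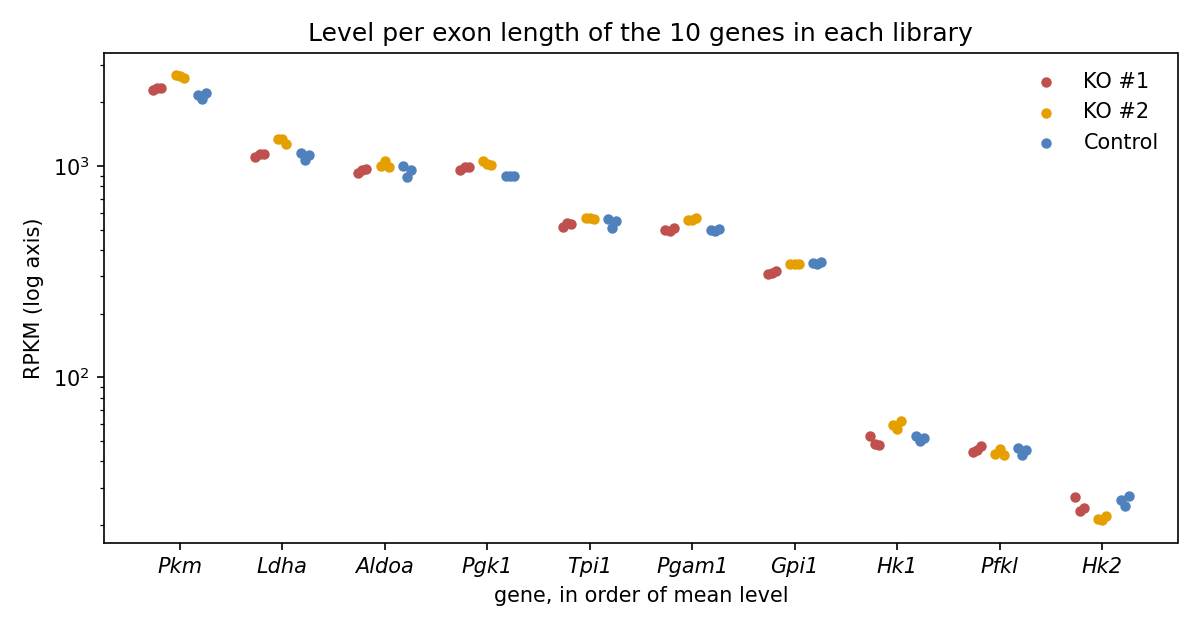
RPKM on a log axis for the 10 genes in order of mean level, with 1 point per library and colours for KO #1, KO #2 and Control. Pkm lies highest, near 2373 RPKM, and Hk2 lowest, near 24.2 RPKM, and the groups lie close together within each gene.

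Differences were tested with limma on log2 of the normalised reads plus 1 over 9564 genes, and a gene was called when its Benjamini-Hochberg adjusted p was under 0.05. All 10 members were tested. They were chosen with earlier results of these data known, so their counts beside the background shares are a description and do not test the set. Whether libraries of 1 group were separate cultures is not stated in the labels, so p-values reflect scatter among these libraries, which may be technical. Limma also draws the spread of each gene towards that of genes of like abundance. Each limma SE, interval and p-value given here is therefore moderated and is not the gene's own scatter alone. In KO #1 against Control 3 of the 10 members were called by limma, Pgk1 and Pkm higher and Gpi1 lower. Across all tested genes 20.8% were called in this comparison, 10.5% higher and 10.2% lower, and among the genes at least as abundant as the lowest member 38.2% were called, so 3 of 10 lies between these background shares. In KO #2 against Control 7 of the 10 were called, with Hk1, Aldoa, Pgk1, Pgam1, Pkm and Ldha higher and Hk2 lower. The background there was 22.5% of all tested genes, 10.7% higher and 11.8% lower. It was 40.6% of the genes at least as abundant as the lowest member, Hk2 at 288 normalised reads. Pkm averaged 13341, so that share is not matched to the abundance of each member. Both comparisons use the same Control libraries. In these bulk samples a change in the share of cells that express a gene and a change in RNA per cell cannot be told apart.

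The counts were 3 members in KO #1 against Control, 7 in KO #2 against Control and 7 in KO #1 against KO #2 with edgeR's quasi-likelihood test on the recovered reads, which called 22.1%, 23.3% and 27% of all tested genes. The clones were also compared directly. In KO #1 against KO #2 6 of the 10 members were called, Hk2 higher and Hk1, Gpi1, Pgam1, Pkm and Ldha lower. The background was 26.5% of all tested genes, 13.5% higher and 12.9% lower. Of the genes at least as abundant as the lowest member 46.3% were called. The median log2 difference of the members was 0.04 in KO #1 against Control, 0.15 in KO #2 against Control and -0.10 in KO #1 against KO #2. The medians of all tested genes were -0.01, -0.01 and 0.00 on the same scale. By group mean, 8 of the 10 members were highest in KO #2, Pfkl was highest in KO #1 and Hk2 in Control.

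**Figure D2:**
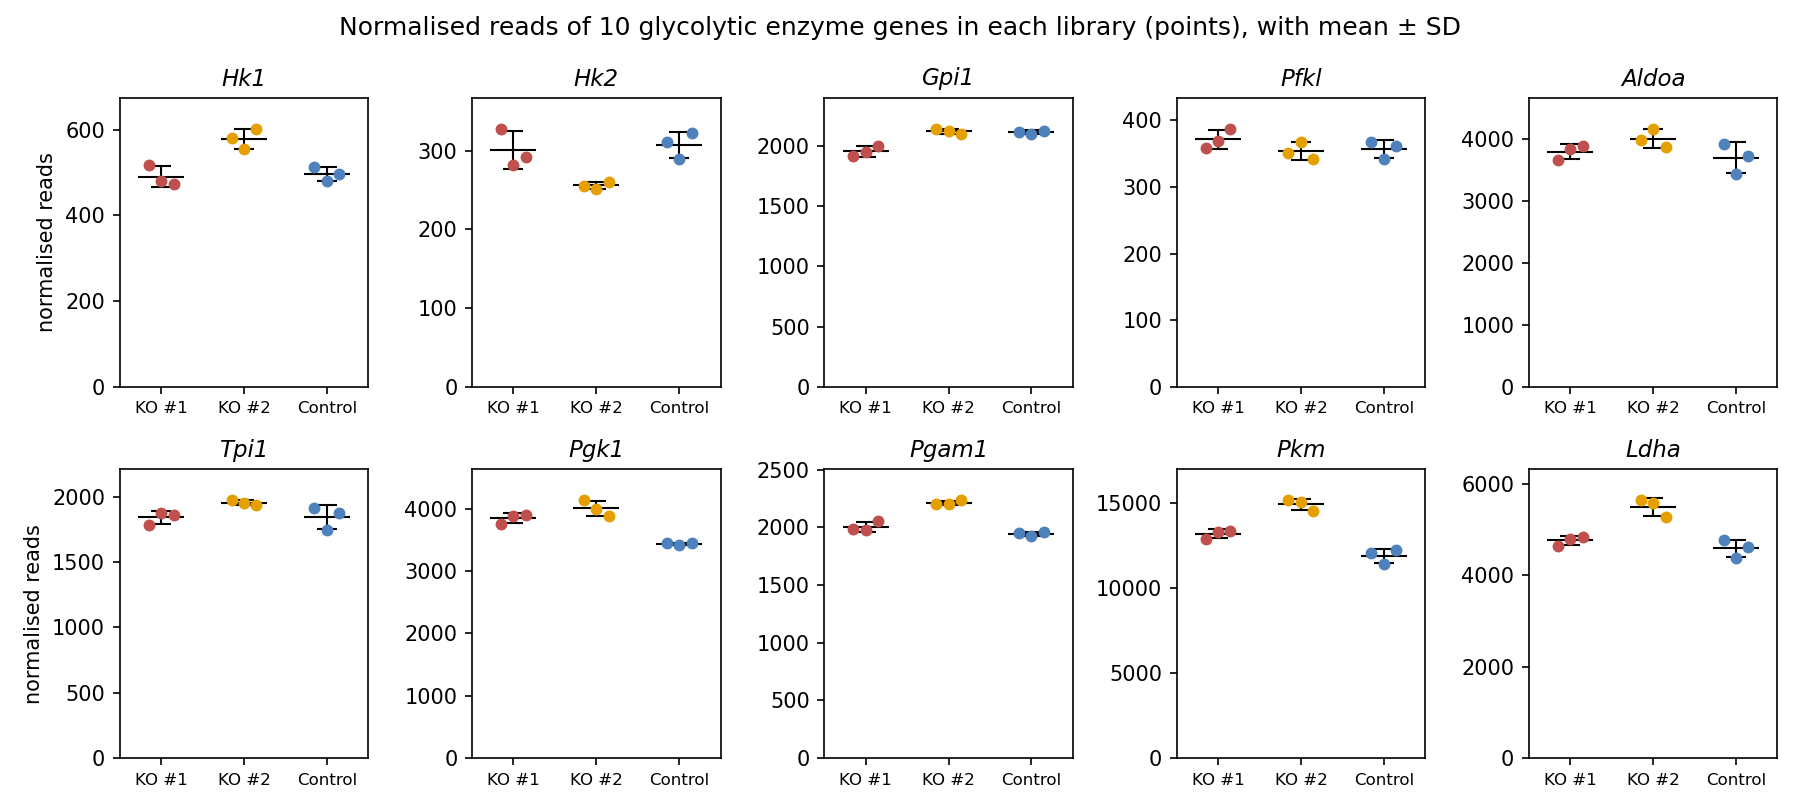
Normalised reads on linear axes from 0 for each of the 10 genes, with 1 point per library and bars for the mean ± SD of 3 libraries in KO #1, KO #2 and Control, from left to right. Pkm, Ldha, Pgam1 and Hk1 lie higher in all KO #2 libraries than in all others, and Hk2 lies lower in all of them.

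The pathway opens with hexokinase, which phosphorylates glucose and traps it in the cell. Hk1, the broadly expressed form, had 518.5, 479.1 and 473.5 normalised reads in KO #1, 580.2, 554.7 and 601.8 in KO #2, and 512.1, 479.2 and 496.2 in Control. All KO #2 libraries were above all others, while KO #1 overlapped Control. The log2 difference was 0.22 ± 0.05 (SE) in KO #2 against Control (limma, adjusted p = 0.00119), a 1.17-fold higher level, and -0.02 ± 0.05 in KO #1 against Control (adjusted p = 0.88). Hk2, the inducible form, had 327.8, 282.5 and 292.7 normalised reads in KO #1, 255.7, 251.3 and 260.8 in KO #2, and 311.4, 289.7 and 322.1 in Control. The pattern was the opposite of that of Hk1, with all KO #2 libraries below all others and KO #1 overlapping Control. The log2 difference of Hk2 was -0.26 ± 0.07 in KO #2 against Control (limma, adjusted p = 0.00307) and -0.03 ± 0.07 in KO #1 against Control (adjusted p = 0.80). On the deposited FPKM values the KO #2 difference of Hk2 was -0.22 with an adjusted p of 0.0764 in limma. Between the clones, KO #1 against KO #2, Hk1 was lower by a log2 difference of -0.24 (adjusted p = 0.000415) and Hk2 higher by 0.23 (adjusted p = 0.00952), but the call of Hk2 was lost without KO #1 replicate 1, at 0.17 (adjusted p = 0.115).

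Per length, Hk2 made up 34.1%, 32.5% and 33.6% of the 2 hexokinases in KO #1, 26.5%, 27.0% and 26.2% in KO #2, and 33.2%, 33.1% and 34.7% in Control. The KO #2 libraries did not overlap the others. The share was 26.6% ± 0.44 in KO #2 and 33.7% ± 0.88 in Control (SD, n = 3 each), a difference of -7.10 percentage points with a two-sided exact permutation p of 0.1, the smallest that 3 against 3 libraries allow. KO #1 had 33.4% ± 0.79, which differed from Control by -0.26 percentage points (exact permutation p = 0.7) and from KO #2 by 6.83 (exact permutation p = 0.1). From the FPKM tables the difference of KO #1 against Control had the other sign, 0.35 percentage points (exact permutation p = 0.8).

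**Figure D3:**
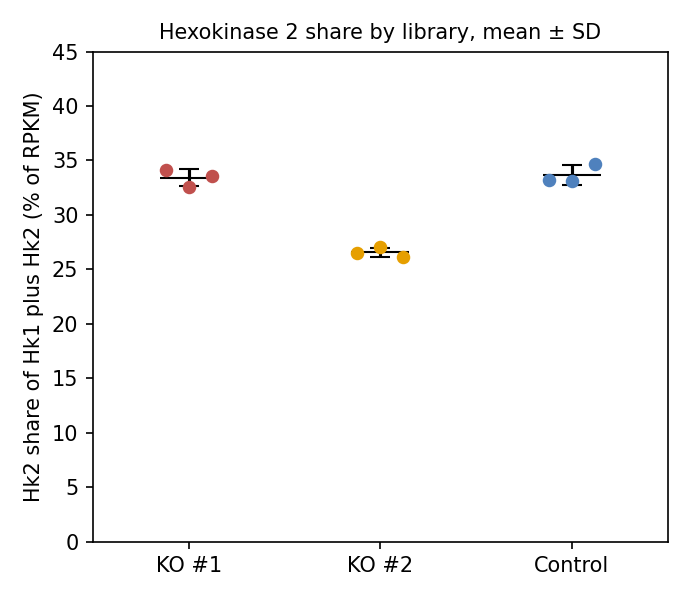
Share of Hk2 in the summed RPKM of Hk1 and Hk2, in percent, with 1 point per library and bars for mean ± SD of 3 libraries in KO #1, KO #2 and Control, from left to right. The KO #2 libraries lie between 26.2% and 27.0%, below the 32.5% to 34.7% of the other libraries.

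Gpi1 encodes glucose-6-phosphate isomerase, which turns glucose 6-phosphate into fructose 6-phosphate. It had 1916.1, 1948.4 and 2005.9 normalised reads in KO #1, 2144.5, 2127.5 and 2104.1 in KO #2, and 2120.7, 2098.3 and 2129.5 in Control. All KO #1 libraries were below all others, and Gpi1 was the only member called lower in KO #1 against Control. The log2 difference was -0.11 ± 0.03 in KO #1 against Control (limma, adjusted p = 0.00764), 0.01 ± 0.03 in KO #2 against Control (adjusted p = 0.93) and -0.12 ± 0.03 in KO #1 against KO #2 (adjusted p = 0.00368). On the FPKM values the KO #1 difference was -0.12 with an adjusted p of 0.0601. Pfkl, the liver-type subunit of phosphofructokinase, which commits the sugar to glycolysis, had 358.7, 368.3 and 387.2 normalised reads in KO #1, 351.0, 368.2 and 342.2 in KO #2, and 367.3, 341.7 and 360.9 in Control. All groups overlapped. Its log2 differences were 0.06 with a 95% interval of -0.07 to 0.18 in KO #1 against Control and -0.01 with an interval of -0.14 to 0.11 in KO #2 against Control, and neither was called.

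Aldolase A, encoded by Aldoa, splits fructose 1,6-bisphosphate into a pair of triose phosphates. Aldoa had 3661.1, 3838.0 and 3888.8 normalised reads in KO #1, 3982.4, 4160.8 and 3864.8 in KO #2, and 3923.9, 3427.8 and 3725.1 in Control. The groups overlapped, and Control replicate 2 was the lowest of all libraries. The gene was called higher in KO #2 against Control, with a log2 difference of 0.12 ± 0.03 (limma, adjusted p = 0.00487). Without Control replicate 2 that difference was 0.07 (adjusted p = 0.157), and without KO #2 replicate 2 it was 0.09 (adjusted p = 0.086), so 1 library decides the call. In KO #1 against Control it was 0.04 ± 0.03 (adjusted p = 0.43). Tpi1, triose phosphate isomerase, interconverts the 2 triose phosphates. It had 1788.3, 1877.6 and 1863.6 normalised reads in KO #1, 1974.7, 1955.7 and 1934.2 in KO #2, and 1915.7, 1742.8 and 1877.8 in Control. All KO #2 libraries were above all others, but the log2 difference of 0.08 ± 0.04 in KO #2 against Control missed the threshold (limma, adjusted p = 0.0823), with a 95% interval of 0.01 to 0.16. In KO #1 against Control the difference was 0.00, with an interval of -0.07 to 0.07.

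Pgk1, phosphoglycerate kinase, makes the first ATP of the later phase of the pathway. It had 3758.0, 3884.9 and 3908.1 normalised reads in KO #1, 4141.8, 3996.9 and 3894.3 in KO #2, and 3445.8, 3422.9 and 3454.5 in Control. Every library of both clones was above every Control library, and the clones overlapped each other. The log2 difference was 0.16 ± 0.03 in KO #1 against Control (limma, adjusted p = 8.03e-06) and 0.22 ± 0.03 in KO #2 against Control (adjusted p = 5.00e-09), and -0.06 ± 0.03 in KO #1 against KO #2 (adjusted p = 0.125). Pgam1, phosphoglycerate mutase, moves the phosphate group from carbon 3 to carbon 2 of phosphoglycerate. It had 1987.2, 1976.4 and 2055.7 normalised reads in KO #1, 2203.9, 2203.1 and 2235.1 in KO #2, and 1948.9, 1923.5 and 1958.6 in Control. No 2 groups overlapped, with KO #2 highest and Control lowest. The log2 difference was 0.19 ± 0.03 in KO #2 against Control (limma, adjusted p = 6.32e-06) and -0.14 ± 0.03 in KO #1 against KO #2 (adjusted p = 0.000489), whereas the 0.05 ± 0.03 in KO #1 against Control was not called (adjusted p = 0.38).

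Pkm had 12895.3, 13324.7 and 13370.5 normalised reads in KO #1, 15168.1, 15057.8 and 14524.5 in KO #2, and 12058.7, 11439.0 and 12226.6 in Control. No 2 groups overlapped, and the order was KO #2, KO #1 and Control from high to low. The log2 difference was 0.33 ± 0.02 in KO #2 against Control (limma, adjusted p = 1.09e-18), a 1.25-fold higher level, and 0.15 ± 0.02 in KO #1 against Control (adjusted p = 2.66e-07), a 1.11-fold higher level. Between KO #1 and KO #2 it was -0.18 ± 0.02 (limma, adjusted p = 2.08e-09). Gene-level reads cannot separate the M1 and M2 splice forms of Pkm. Ldha had 4637.2, 4800.2 and 4834.8 normalised reads in KO #1, 5639.1, 5574.6 and 5267.9 in KO #2, and 4759.6, 4382.2 and 4617.9 in Control. All KO #2 libraries were above all others, and KO #1 overlapped Control. Ldha differed by 0.26 ± 0.03 on the log2 scale in KO #2 against Control (limma, adjusted p = 4.45e-11), a 1.198-fold higher level, by 0.05 ± 0.03 in KO #1 against Control (adjusted p = 0.20) and by -0.21 ± 0.03 in KO #1 against KO #2 (adjusted p = 2.42e-08).

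**Figure D4:**
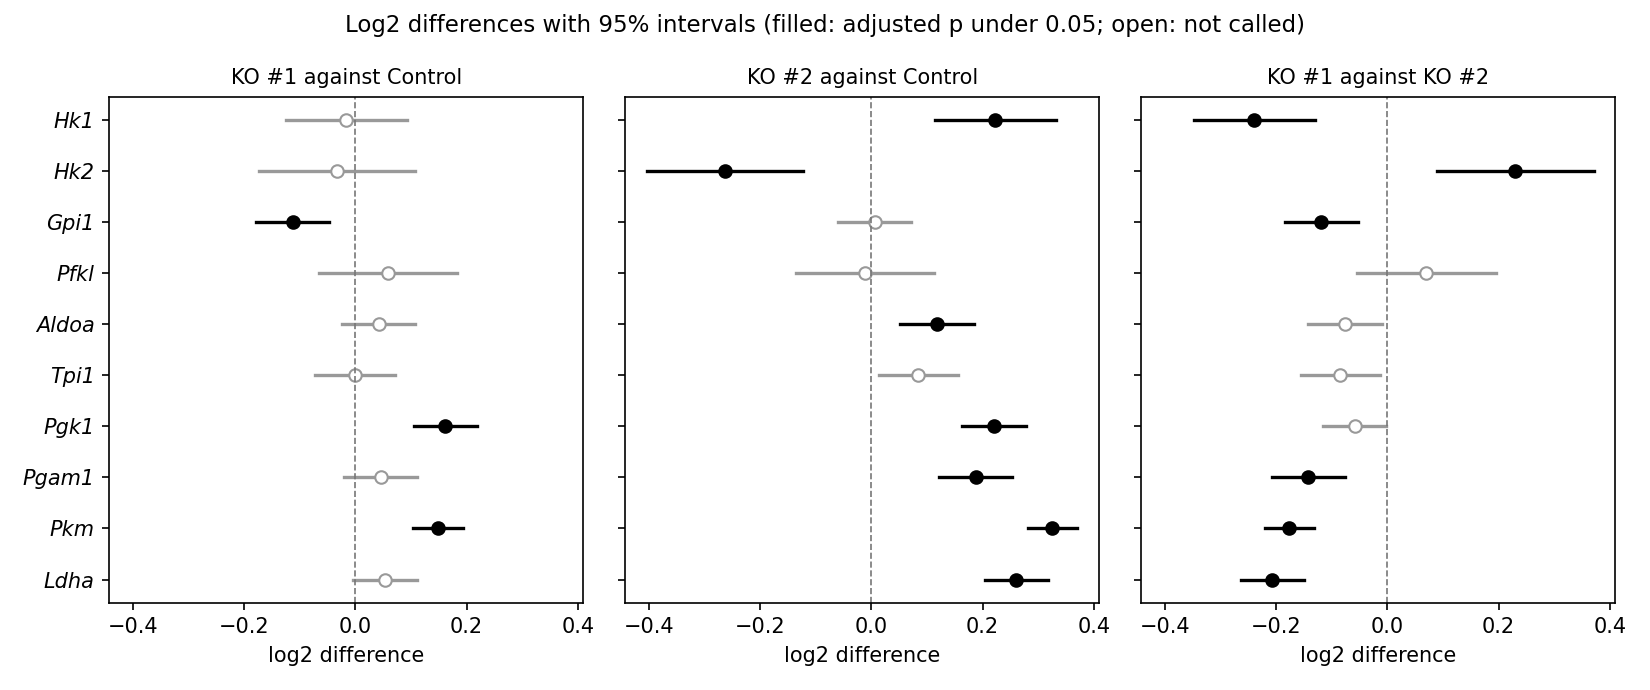
Log2 differences with 95% intervals for the 10 genes in pathway order, for KO #1 against Control, KO #2 against Control and KO #1 against KO #2, with filled points for an adjusted p under 0.05 and open points for genes not called. In KO #2 against Control 6 genes lie above 0 as filled points and Hk2 lies below.

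The members did not overlap between groups in 4 of 10 genes for KO #1 against Control, in 7 for KO #2 against Control and in 7 for KO #1 against KO #2. Across all tested genes this held for 32.9%, 34.5% and 37.4% in the same comparisons. Control replicate 2 was the lowest Control library in all 10 members, KO #1 replicate 1 was the lowest of its group in 7 and KO #2 replicate 3 in 7. Without Control replicate 2 the log2 difference of Pkm in KO #2 against Control was 0.30 and that of Ldha in KO #1 against Control was 0.02. In that fit 8 members were called in KO #1 against KO #2. Control libraries enter the comparison of the clones only through the shared estimate of the spread, so the differences between the clones were unchanged. Summed over the 10 genes, the level was 32570 ± 643 normalised reads in KO #1, 35907 ± 766 in KO #2 and 30693 ± 998 in Control (SD, n = 3 each). The KO #2 sum was 1.17 times and the KO #1 sum 1.06 times that of Control. Pkm alone made up 57.7% of the difference in summed reads of KO #2 against Control. As a share of all reads the members took 1.49% in KO #1, 1.66% in KO #2 and 1.44% in Control.

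**Figure D5:**
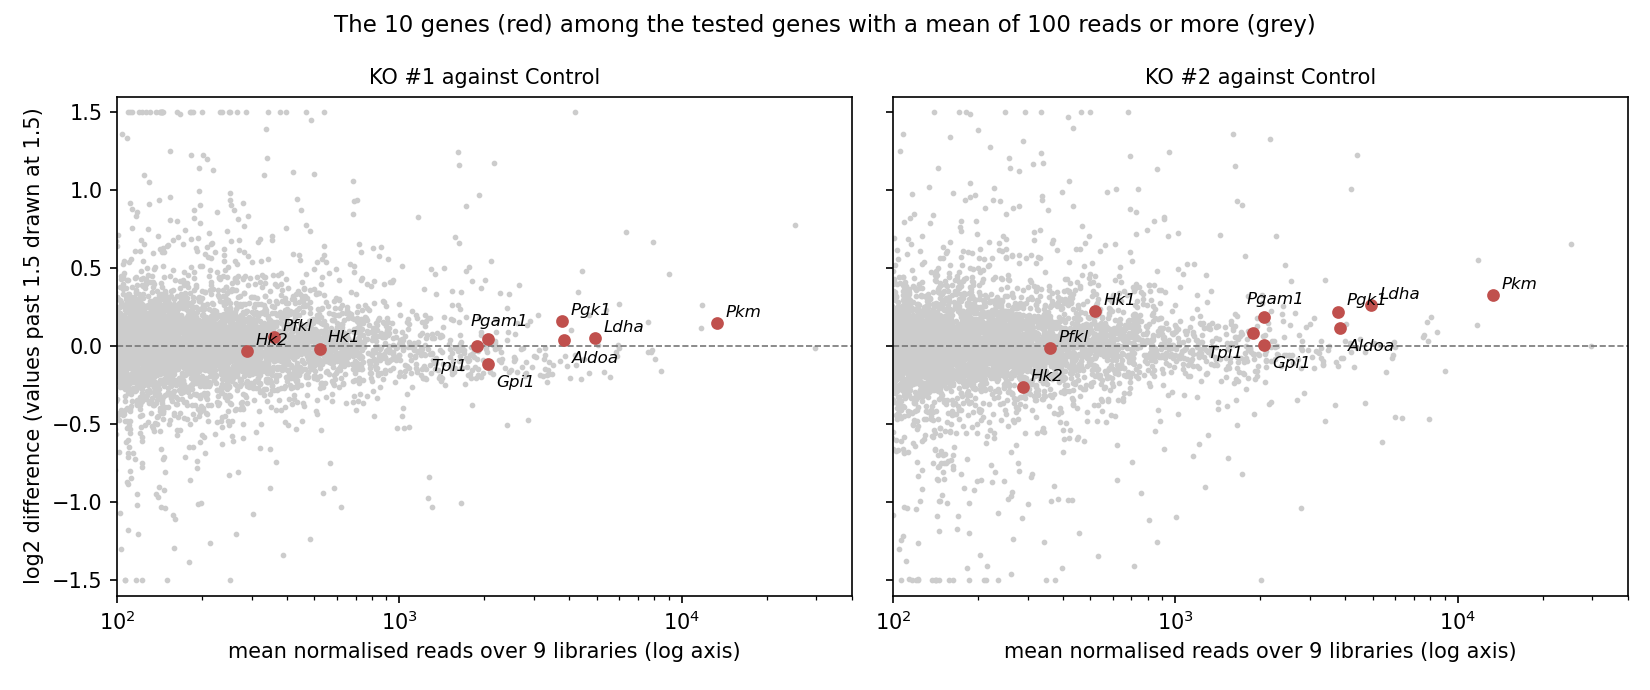
Log2 difference against mean normalised reads over 9 libraries (log axis) for KO #1 against Control and KO #2 against Control, with the 10 genes in red and other tested genes in grey, and values past 1.5 drawn at 1.5. The members are among the abundant genes, and many grey points lie further from 0 than the 0.33 of Pkm in KO #2.

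None of the 10 genes lies on chromosome 12 or on chromosome 16, of which the part beyond 70 Mb and chromosome 12 showed shifted medians. Chromosome 12 had a median log2 difference of -0.28 over 347 tested genes in KO #1 against Control and 0.28 in KO #2 against Control, and chromosome 16 beyond 70 Mb had -0.80 over 62 genes in KO #1 against Control. The member calls were the same without these genes. In mm10 coordinates of the deposited table the genes lie at chr10:62268855-62379908 (Hk1, minus strand), chr6:82725027-82774454 (Hk2, minus), chr7:34201327-34230305 (Gpi1, minus), chr10:77986949-78009796 (Pfkl, minus) and chr7:126795234-126800447 (Aldoa, minus). The others lie at chr6:124810592-124814296 (Tpi1, minus), chrX:106187124-106203699 (Pgk1, plus), chr19:41911871-41918665 (Pgam1, plus), chr9:59656368-59679375 (Pkm, plus) and chr7:46845804-46855627 (Ldha, plus). All are protein-coding genes, and the reads were counted over their exons. Exon bases of Tpi1 overlap those of Spsb2 on the opposite strand over 23 bases, and Spsb2 had 95 reads in all 9 libraries together.

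Several members have near-identical copies elsewhere in the genome. In the GENCODE M21 transcripts, stretches of at least 100 bases with at least 95% identity were found in 8 pseudogenes for Ldha, 4 for Pgk1, and 1 each for Aldoa, Tpi1 and Pgam1. Pkm and Gpi1 each matched 1 pseudogene and 1 other gene, and Hk1, Hk2 and Pfkl matched none. How the authors treated reads that fit several places is not given in the sources used here, so the levels of the members with copies are uncertain. The deposited FPKM of the members in Control was 1.01 to 1.32 times the RPKM computed here, with the highest ratios for Aldoa at 1.32 and Ldha at 1.29.

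The 5 genes outside the list whose log2 values followed the mean of the members most closely over the 9 libraries, among 6734 genes with a mean of at least 50 normalised reads, were C5ar1 (Pearson r = 0.94), Abhd11 (0.94), Gmeb1 (0.93), Fgd6 (0.93) and Antxr2 (0.93). The libraries are shared by both sides of this correlation, and it is given as a description. C5ar1, the receptor for complement fragment C5a, averaged 151 normalised reads in KO #1, 231 in KO #2 and 140 in Control. Of the members, Ldha at 0.97 and Pkm at 0.95 followed the mean of all 10 most closely. Hk2 ran against this mean at -0.69, and Pfkl at 0.10 and Gpi1 at 0.31 followed it least. Each member is part of that mean, which raises its r, so these values cannot be set against those of the 5 outside genes.

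The deposited table lists 20 other isozyme genes of the pathway, and 9 of them passed the filter on low values. None of the 9 was called in KO #1 against Control, where limma gave 1 at an unadjusted p under 0.05 and edgeR called 1 and DESeq2 0. Pfkm, the muscle phosphofructokinase, came nearest with 27.7 normalised reads in KO #1 and 40.4 in Control (limma, adjusted p = 0.0711). In KO #2 against Control 1 was called higher and 1 lower. Of all tested genes limma called 20.8% in KO #1 against Control and 22.5% in KO #2 against Control. Aldoc, the brain-type aldolase, averaged 81.1 ± 3.30 normalised reads in KO #2 and 45.1 ± 2.88 in Control (SD, n = 3 each), a log2 difference of 0.83 ± 0.15 (limma, adjusted p = 1.32e-05). Pfkp, the platelet-type phosphofructokinase, was lower in KO #2, with 311 normalised reads against 376 in Control and a log2 difference of -0.28 ± 0.07 (limma, adjusted p = 0.000795). Both differed between the clones too, with Aldoc lower by -0.57 and Pfkp higher by 0.36 on the log2 scale in KO #1 against KO #2 (limma, adjusted p = 0.00255 for Aldoc and 1.24e-05 for Pfkp). The hexokinase Hk3 averaged 60.6 normalised reads in KO #1, 66.2 in KO #2 and 64.1 in Control, and Adpgk, an ADP-dependent glucokinase, 171 in KO #1, 164 in KO #2 and 161 in Control. Eno3, the muscle enolase, averaged 55.2, 60.7 and 62.6 and Bpgm, which makes 2,3-bisphosphoglycerate, 34.5, 36.3 and 33.5 normalised reads in KO #1, KO #2 and Control. None of these 4 was called by limma in any comparison. Pfkm was lower in KO #1 against KO #2, by -0.55 (limma, adjusted p = 0.0438), with groups that overlapped. The median log2 difference of the 9 genes was -0.04 in KO #1 against Control and 0.05 in KO #2 against Control, beside -0.01 for all tested genes in both.

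Gapdh and Eno1 encode the dehydrogenase and the enolase that join the members into 1 chain. Gapdh averaged 7338 normalised reads in KO #1, 7849 in KO #2 and 7542 in Control. It was called in KO #1 against KO #2, with a log2 difference of -0.10 ± 0.03 (limma, adjusted p = 0.00393), and neither in KO #1 against Control (-0.04, adjusted p = 0.35) nor in KO #2 against Control (0.06, adjusted p = 0.118). Near-identical stretches of Gapdh were found in 94 other genes, 92 of them pseudogenes. Eno1 had a mean of 16.6 normalised reads in KO #1, 24.5 in KO #2 and 18.0 in Control, while the authors' deposited FPKM tables list Eno1 joined with Gm5506 at 1264 ± 17.6 FPKM in Control. Per length the Eno1 reads give 4.75 RPKM in Control, so the tables differ 266-fold for this enzyme, and 4 other genes hold near-identical stretches of it. In the authors' deposited table of KO #2 and Control the joined entry averaged 1416 FPKM in KO #2 and 1270 FPKM in Control, with a deposited q of 0.184. In the authors' deposited table of KO #1 and Control it averaged 1236 FPKM in KO #1 and 1264 FPKM in Control, with a deposited q of 0.849.

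Transporters of glucose and lactate had 8 tested genes of 9. In KO #1 against Control 3 were higher and 1 lower, and in KO #2 against Control 2 were higher and 2 lower. Limma called 20.8% and 22.5% of all tested genes in these comparisons, and 26.5% in KO #1 against KO #2. Slc2a6, a member of the glucose transporter family, averaged 220 ± 9.48 normalised reads in KO #1, 103 ± 6.31 in KO #2 and 307 ± 13.7 in Control (SD, n = 3 each). It was lower in both clones, by -0.48 ± 0.08 on the log2 scale in KO #1 (limma, adjusted p = 6.41e-06) and by -1.57 ± 0.08 in KO #2 (adjusted p = 2.07e-23). Slc16a3, the lactate exporter MCT4, averaged 349 ± 5.23 normalised reads in KO #1, 398 ± 23.8 in KO #2 and 287 ± 37.8 in Control. It was higher in both, by 0.29 ± 0.07 in KO #1 (limma, adjusted p = 0.00109) and by 0.48 ± 0.07 in KO #2 (adjusted p = 1.42e-07). Slc2a3, the glucose transporter GLUT3, was higher in KO #1 by 0.50 (adjusted p = 0.000272) and differed by 0.01 in KO #2 (adjusted p = 0.96). Slc2a1, the glucose transporter GLUT1, was lower in KO #2 by -0.20 (limma, adjusted p = 0.0487), and Slc16a1, the lactate carrier MCT1, higher by 0.13 (adjusted p = 0.0408). Bsg, the partner that brings MCT1 and MCT4 to the membrane, was higher in KO #1 by 0.15 (limma, adjusted p = 0.0422), with groups that overlapped. Between the clones 3 were higher in KO #1 against KO #2, Slc2a6 by 1.09, Slc2a3 by 0.49 and Slc2a1 by 0.30 on the log2 scale, and 2 were lower, Slc16a1 by -0.24 and Slc16a3 by -0.19. The median of the list was 0.13 in KO #1 against Control and 0.06 in KO #2 against Control. DESeq2 called 3 transporter genes in KO #1 against Control and 2 in KO #2 against Control, where limma called 4 and 4.

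Among 12 tested regulators of the flux 1 was higher and none lower in KO #1 against Control. In KO #2 against Control 2 were higher and 2 lower. The shares of all tested genes called by limma were 20.8% and 22.5% in these comparisons, and 26.5% in KO #1 against KO #2. Hif1a averaged 406 normalised reads in KO #1, 427 in KO #2 and 361 in Control. It was called higher in KO #2, with a log2 difference of 0.24 ± 0.07 (limma, adjusted p = 0.00368) and groups that overlapped, and reached 0.17 in KO #1 (adjusted p = 0.0614). Hif1a lies on chromosome 12, whose median was -0.28 in KO #1 against Control and 0.28 in KO #2 against Control. The difference of Hif1a had the sign of that median in KO #2 and the other sign in KO #1. The part of the chromosome in it was not tested. Txnip, an inhibitor of glucose uptake, was lower in KO #2, with 581 normalised reads against 715 in Control and a log2 difference of -0.30 ± 0.05 (limma, adjusted p = 3.43e-06). Pdk3, a kinase that shuts off pyruvate dehydrogenase, was lower in KO #2 by -0.51 ± 0.12 (limma, adjusted p = 0.000622). Myc, a growth transcription factor named after its values were seen, was the remaining call, with 8.81 normalised reads in KO #1, 12.4 in KO #2 and 4.07 in Control (limma, adjusted p = 0.0219 for KO #1 and 0.00161 for KO #2), and its groups overlapped. DESeq2 called 0 regulators in KO #1 against Control, where limma and edgeR called 1 and limma gave 4 at an unadjusted p under 0.05, and 4 in KO #2 against Control. Only Txnip of this list was called in KO #1 against KO #2, higher by 0.23. Of 14 tested hypoxia-responsive genes outside glycolysis 3 were higher and none lower in KO #1 against Control, and 1 was higher and 1 lower in KO #2 against Control, with medians of -0.12 and -0.02. P4ha1, a collagen prolyl hydroxylase subunit, was higher in KO #1 by 0.43 ± 0.07 (limma, adjusted p = 3.49e-06) and Ak4, a mitochondrial adenylate kinase, by 0.38 ± 0.12 (adjusted p = 0.0130). Vegfa, the angiogenic growth factor, and Ndrg1, a stress-response gene, were named after their values were seen. Vegfa averaged 34.8 normalised reads in KO #1, 29.7 in KO #2 and 18.7 in Control and was higher in both clones (limma, adjusted p = 0.00205 for KO #1 and 0.0252 for KO #2), and Ndrg1 was lower in KO #2, with 27.8 normalised reads against 49.1 in Control (adjusted p = 0.00107). With DESeq2 the calls were 2 in KO #1 against Control and 1 in KO #2 against Control, where limma called 3 and 2. P4ha1 was the 1 gene of the list called in KO #1 against KO #2, higher by 0.28.

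Genes of pyruvate entry into mitochondria were all tested, 8 of 8. In KO #1 against Control none was higher and 1 lower, and in KO #2 against Control 1 was higher and 2 lower. Over all tested genes limma called 20.8% and 22.5% in these comparisons, and 26.5% in KO #1 against KO #2. Mpc1, a subunit of the mitochondrial pyruvate carrier, averaged 49.7 normalised reads in KO #2 and 89.0 in Control, a log2 difference of -0.83 ± 0.15 (limma, adjusted p = 8.99e-06), and its difference was -0.34 in KO #1 (adjusted p = 0.0948). Pcx, pyruvate carboxylase, named after its values were seen, was lower in KO #2 with 13.4 normalised reads against 25.7 in Control (limma, adjusted p = 0.00211). Dld, the E3 subunit of pyruvate dehydrogenase, was lower in KO #1 by -0.27 ± 0.06 (limma, adjusted p = 0.000258) and higher in KO #2 by 0.45 ± 0.06 (adjusted p = 4.61e-09). Dld lies on chromosome 12, and its differences have the signs of that chromosome's medians. DESeq2 called 2 of these genes in KO #2 against Control and 2 in KO #1 against KO #2, where limma called 3 and 4. Pcx at 1.42 and Mpc1 at 0.49 were higher and Dld at -0.72 and Mpc2, the other carrier subunit, at -0.46 were lower on the log2 scale in KO #1 against KO #2. The median of the list was -0.17 in KO #1 against Control and 0.04 in KO #2 against Control. Of 10 tested genes of gluconeogenesis and glycogen 1 was higher in KO #1 against Control, and 1 was higher and 4 lower in KO #2 against Control. Gbe1, the glycogen branching enzyme, was higher in KO #1 by 0.79 ± 0.15 (limma, adjusted p = 3.30e-05), and lies on chromosome 16 beyond 70 Mb, where the median was -0.80. Gys1, glycogen synthase, was higher in KO #2 by 0.45 ± 0.11 (limma, adjusted p = 0.00140), while Pygb, a glycogen phosphorylase, was lower by -0.30 ± 0.09 (adjusted p = 0.00838), Pgm2, a phosphoglucomutase gene, by -0.34 ± 0.11 (adjusted p = 0.0199) and Gyg, the glycogen primer protein, by -0.41 ± 0.14 (adjusted p = 0.0271). Pck2, mitochondrial phosphoenolpyruvate carboxykinase, named after its values were seen, was the other gene called lower, with 22.2 normalised reads in KO #2 and 34.8 in Control (adjusted p = 0.0235). Pck2, Gbe1, Gyg and Pygb were higher in KO #1 against KO #2, by 0.28 to 0.71 on the log2 scale, and Gys1 was lower, at -0.48. The median of the list was -0.02 in KO #1 against Control and -0.03 in KO #2 against Control. DESeq2 called 1 gene of this list in KO #2 against Control and 1 in KO #1 against KO #2, where limma called 5 and 6 and edgeR 5 and 6.

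In the authors' deposited FPKM table of KO #1 and Control 0 of the 10 members had a q under 0.05, 1 had a p under 0.05, and the lowest q was 0.132 for Pgk1. In the authors' deposited tables the share of completed tests with a q under 0.05 was 21.5% for KO #1 and Control, 23.9% for KO #2 and Control and 28.6% for the clones. In KO #1 against Control limma on the normalised reads and edgeR on the recovered reads each called 3 members. Limma on the FPKM values called 2. For KO #2 and Control the authors' deposited table had 5 members under 0.05, Hk1 at a q of 0.000441, Pkm at 0.00321, Hk2 at 0.00411, Ldha at 0.0150 and Pgk1 at 0.0330. The authors' deposited table of the 2 clones had 3, Hk1 at 0.000358, Hk2 at 0.00241 and Ldha at 0.0438. For both clones together against Control the authors' deposited normalised table had 0 of 10 with a q under 0.05 and 2 with a p under 0.05, against 3.86% of the genes with a read at that q, and the lowest q was 0.231 for Pkm.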

How the data were processed

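RNA from RAW264 cells was read on an Illumina MiSeq as 9 stranded mRNA libraries, per the labels, with 3 in each group. The submitters' processing notes name TopHat2, Cufflinks 2.1.1, featureCounts 1.4.6, edgeR 3.20.1 and the build mm10, with no order given. A deposited table covers every library with a normalised signal, in which the authors scaled gene counts by a factor for each library, TMM by the table's name. All values (100%) were whole multiples of a step within a relative 1e-06, so reads were recovered, 1821703 to 2458539 per library. The deposited FPKM tables, scaled by the authors within each table, and the authors' p-values and q-values served only where named.

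The members and gene lists were chosen with earlier results of these data known. Normalised values were tested with limma 3.58.1 (R 4.3.3) on log2(value + 1), which understates changes of low genes, with all 9 libraries fitted by group, on genes that reached 10 in 3 or more libraries. The variance of each gene was drawn towards a trend with abundance. P-values were adjusted over all 9564 genes. RPKM was computed from the recovered reads and the deposited exon lengths. Named genes were all members, the tested isozymes, Hif1a, at most 4 called genes per list and comparison with a mean of at least 50 and the lowest adjusted p, and the 5 genes most like the members. Other genes are marked as named after their values were seen. Lists of markers check the cell type. Alternatives were DESeq2 1.42.0, edgeR 4.0.16 and limma-voom on recovered reads, other scalings, filters and pseudocounts, a replicate block and leaving out each library. Limits of 3 reads for genes at 0 reflect counting error alone. Copies were searched with BLAST in GENCODE M21. The procedure was tested on 1 simulated data set with a fixed spread, for KO #2 against Control. Among genes at least as abundant as the lowest member it called 16% of 1.1-fold, 64% of 1.2-fold and 92% of 1.3-fold changes. A member that was not called may thus still have changed by such small folds.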

Additional observations from a re-analysis of the deposited data

Results flagged for a closer look

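For 6 of the 10 enzyme genes the clones differed from each other by the direct test between them, so that their differences from the shared Control libraries were unequal (limma, adjusted p under 0.05 over all tested genes). In KO #1 against KO #2 the log2 difference was -0.24 for Hk1, 0.23 for Hk2, -0.12 for Gpi1, -0.14 for Pgam1, -0.18 for Pkm and -0.21 for Ldha. Across all tested genes 26.5% were called in this comparison. In each of the 6 genes the 3 KO #1 libraries and the 3 KO #2 libraries did not overlap. Each clone is a single clone, so a difference between clones and one between mutated exons cannot be told apart.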

How the results depend on the processing

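Of 690 values of single members under 23 alternatives 670 kept their side of the threshold, 12 passed it only under the alternative, 8 lost it, and no called value changed sign. The calls lost were those given in the report for Aldoa, Hk2 and Gpi1, with Aldoa in KO #2 against Control also lost under DESeq2 (adjusted p = 0.119) and on the FPKM values (adjusted p = 0.125), and Hk2 in KO #1 against KO #2 under DESeq2 (adjusted p = 0.0804). Over all 23 the adjusted p ran to 0.157 for Aldoa and 0.0764 for Hk2 in KO #2 against Control, to 0.0601 for Gpi1 in KO #1 against Control and to 0.115 for Hk2 between the clones. Pgk1 and Pkm in KO #1 against Control, and Hk1, Pgk1, Pgam1, Pkm and Ldha in KO #2 against Control, were called in all 23. With DESeq2 the genes called were 1236 of 9564 in KO #1 against Control, 1396 in KO #2 against Control and 1612 in KO #1 against KO #2, where limma called 1985, 2152 and 2533. Leaving out each library gave 1674 to 2029, 1840 to 2171 and 2179 to 2529 genes, and 3 to 3, 6 to 8 and 5 to 8 members, in the same order of comparisons. Scaling to total reads called 9 members in KO #1 against KO #2, as limma-voom did, edgeR called 7 and DESeq2 5, where limma called 6.

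For libraries with the same replicate number the correlations of their deviations were -0.02 to 0.03, so no shared shift was seen. Whether such libraries shared a culture or a preparation cannot be told from these values. With a replicate block 2001, 2171 and 2545 genes and 3, 7 and 6 members were called in the 3 comparisons. The alternative without chromosome 12 and chromosome 16 beyond 70 Mb was chosen after seeing the data and called 3, 7 and 6 members.

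Limma sets the spread of a gene partly by its abundance, so the SE follows abundance in part by construction. Whether read number limits the precision was not tested. The SE of a log2 difference was 0.02 for Pkm, with 119868 reads in all, and 0.07 for Hk2, with 2596, and the 95% interval of Hk2 in KO #1 against Control, -0.17 to 0.11, holds the -0.11 found for Gpi1.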
